A study of Homo sapiens with 7 samples.

Results

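The ZFP36 family consists of 3 human genes, ZFP36, ZFP36L1 and ZFP36L2, and MYCN binding was described at their loci in Kelly cells. Members were chosen as the MYCN summits that lie in a window around each gene, made of the gene and about 10 kb on each side. On hg19 the windows ran from 39887 to 39911 kb of chromosome 19 for ZFP36, from 69244 to 69273 kb of chromosome 14 for ZFP36L1, and from 43439 to 43464 kb of chromosome 2 for ZFP36L2. A summit is the position of locally highest ChIP signal inside a called interval. The windows held 32 of the 64657 summits in the list, 12 at ZFP36, 5 at ZFP36L1 and 15 at ZFP36L2. ZFP36L2 had been picked because it holds the widest interval of the list, so its width, its summit number and its other values are descriptions of a chosen locus and carry no test.

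Kelly is an established human neuroblastoma line in which MYCN is amplified and the kinase ALK carries an activating mutation. The series describes TAE684-resistant Kelly cells, kept for 48 h in the ALK inhibitor TAE684 at 1 µM, and TAE684-sensitive Kelly cells, kept for 48 h in the vehicle DMSO. Resistant cells have 2 MYCN ChIP samples and 2 input samples, and sensitive cells have 2 MYCN ChIP samples and 1 input sample, input being sheared chromatin without an antibody. The 2 peak lists, named for the resistant and the sensitive cells, were identical in 64657 of 64657 rows, and 64657 peak names of the resistant list carried the name of the sensitive list. Every value below therefore refers to the sensitive cells, no comparison between the states was made, and since both ChIP samples share 1 list there is no replicate error.

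The proteins of this family bind AU-rich elements in messenger RNAs through a pair of CCCH zinc fingers and recruit the CCR4-NOT deadenylase, which shortens the poly(A) tail and starts decay of the message. ZFP36, also called tristetraprolin, is known for the decay of inflammatory cytokine messages such as that of TNF, and ZFP36L1 and ZFP36L2 are known for roles in differentiation and in the restraint of cell proliferation. All of them are short genes of the immediate-early kind, induced rapidly by growth factors. MYCN binds DNA as a dimer with MAX, typically near gene starts and at the E-box, whose preferred form is CACGTG and whose general form is CANNTG.

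Promoter sequences are shown because called intervals lay at the approximate gene edges of both ZFP36 and ZFP36L1, at the ends where textbook maps place their starts. They come from RefSeq on GRCh38.p14, a different build from that of the peaks, so their coordinates cannot be set against the hg19 positions in this text. Each runs 5′ to 3′ from 250 bases before to 50 bases after an annotated start, and capitals mark CANNTG. Entries were found for 2 of the 3 genes, and ZFP36L2 had none. ZFP36 (chr19:39406597-39406896, plus strand) has 1 entry and ZFP36L1 has 2, an upstream start (chr14:68796194-68796493, minus strand) and a downstream start (chr14:68793367-68793666, minus strand).
ZFP36: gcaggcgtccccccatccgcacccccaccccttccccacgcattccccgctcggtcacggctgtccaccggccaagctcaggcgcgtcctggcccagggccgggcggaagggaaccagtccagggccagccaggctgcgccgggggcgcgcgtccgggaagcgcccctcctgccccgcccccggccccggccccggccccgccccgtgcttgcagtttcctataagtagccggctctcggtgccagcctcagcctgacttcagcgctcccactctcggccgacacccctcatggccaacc
ZFP36L1 upstream start: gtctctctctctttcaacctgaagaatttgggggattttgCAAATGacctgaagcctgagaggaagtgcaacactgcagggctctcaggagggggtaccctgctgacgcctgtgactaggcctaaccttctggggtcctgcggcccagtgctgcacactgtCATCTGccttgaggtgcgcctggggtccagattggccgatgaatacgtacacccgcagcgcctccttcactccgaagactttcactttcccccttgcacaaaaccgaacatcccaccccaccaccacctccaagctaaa
ZFP36L1 downstream start: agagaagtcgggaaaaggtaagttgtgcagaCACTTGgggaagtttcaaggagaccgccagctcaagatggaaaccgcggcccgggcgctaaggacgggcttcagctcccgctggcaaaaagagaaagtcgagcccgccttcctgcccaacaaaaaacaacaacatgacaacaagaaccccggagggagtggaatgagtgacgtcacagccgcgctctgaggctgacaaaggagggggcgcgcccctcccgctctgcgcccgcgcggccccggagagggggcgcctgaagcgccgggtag

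No entry held CACGTG, which was found in 7.26% of the 35116 promoters searched (all entries outside chromosome 8). Both motifs read the same on the opposite strand in their fixed letters, so 1 search covers both strands, and CACGTG is 1 form of CANNTG. The ZFP36 promoter held no CANNTG, like 31.3% of all promoters, and its GC content was 74.7%, against a median of 58.7%. The upstream ZFP36L1 promoter held 2, CAAATG at 210 and CATCTG at 89 bases before the start, and 36.4% of all promoters held at least as many. The downstream one held 1, CACTTG at 219 bases before its start, and 68.7% of all promoters held at least 1. A match is a description of letters, and the absence of one says only that these letters are not in this window.

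At ZFP36L2 most summits lay in a broad block over the high-coordinate part of the gene and past its edge. The window held 15 summits in 5 intervals, which covered 22.1% of its length. Of all 121374 consecutive 25-kb stretches of chromosomes 1 to 22 and X, 0.0305% held at least as many summits. At least 5 intervals, in contrast, were found in 0.685% of them, since 9 of the 15 summits shared 1 interval. These stretches include gene-free and unmappable sequence, and nothing is read from the share for a locus picked by its interval.

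The widest interval spanned 3748 bp from 43451285 to 43455032 on chromosome 2 and held 67.9% of the base pairs covered in the window. The next widest interval of the list, on chromosome 17 from 42295693 to 42298946, spanned 3254 bp. Inside the ZFP36L2 interval 9 summits followed each other at distances of 220 to 616 bp. By the window rule the gene covers about 43449 to 43454 kb, so the interval overlaps the high-coordinate part of the gene and reaches past its edge. Textbook maps place the gene's start at that edge, with transcription running towards lower coordinates.

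The 9 summits fell into a weaker and a stronger stretch by their number of ChIP fragments, a number recovered from the deposited fold enrichment and p-value. From low to high coordinates, the first 4 summits, at 43451474, 43451896, 43452480 and 43452722, had 149, 149, 140 and 116 fragments. The next 4, at 43453159, 43453775, 43453995 and 43454331, had 202, 217, 221 and 269 fragments within 1172 bp. The last, at 43454864, had 114. This grouping was made after the values were seen. The fragment number was thus highest near the start edge of the gene and lower on both sides of it.

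The fold enrichment, the authors' ratio of ChIP pileup to local input background at a summit, was moderate over the same interval. In this ratio ChIP fragments are multiplied by 0.641 to match input depth, and a small constant is added to both terms. Fragment numbers in this text are unscaled, so dividing them by the background does not give the fold. It was 4.39, 3.71, 3.49 and 3.28 at the first 4 summits. It was 7.45, 4.83, 6.21 and 8.04 at the next 4, and 2.56 at the last. The highest, 8.04, exceeded that of 78.6% of the list, while its 269 fragments (95% CI 238 to 303, exact Poisson, counting error only) exceeded those of 99.8% of the list. The upper limit of 303 lies above the highest fragment number of the list, 280, and the interval takes no account of a possible ceiling. The measures therefore placed the same summit differently.

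The local background of input fragments was high throughout the block. It ran from 16.5 to 28 input fragments at the 9 summits, against a list median of 7.56 and a lowest value, the genome-wide mean, of 1.61. A background of at least 20 fragments was found at 10 of the 15 ZFP36L2 summits, at 0 of the 17 summits of the other windows and at 1.45% of the list. At the background of the strongest summit, 20.6, even the highest fragment number of the list, 280, would give a fold enrichment of 8.37, and the summit had 96.1% of that number. Across the window this limit ran from 6.23 to 17.0. What raises the input there was not tested. Whether 280 is a ceiling on the fragment number, which would also limit the fold, was not tested either.

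Outside the block, the ZFP36L2 window had 4 further intervals. One from 43446522 to 43447504 held 3 summits with fold enrichments of 4.42, 2.62 and 5.09, and its strongest summit had 173 fragments (95% CI 148 to 201). Single summits at 43448470 and 43449188 reached 3.41 and 4.24 with 110 and 124 fragments. The last, at 43456863, was the weakest by fragments, with 47 fragments, a background of 9.63 and a fold enrichment of 2.93. Its interval began 1.77 kb beyond the block, and this summit alone of the 15 had fewer ChIP fragments than the list median of 63.

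**Figure D1:**
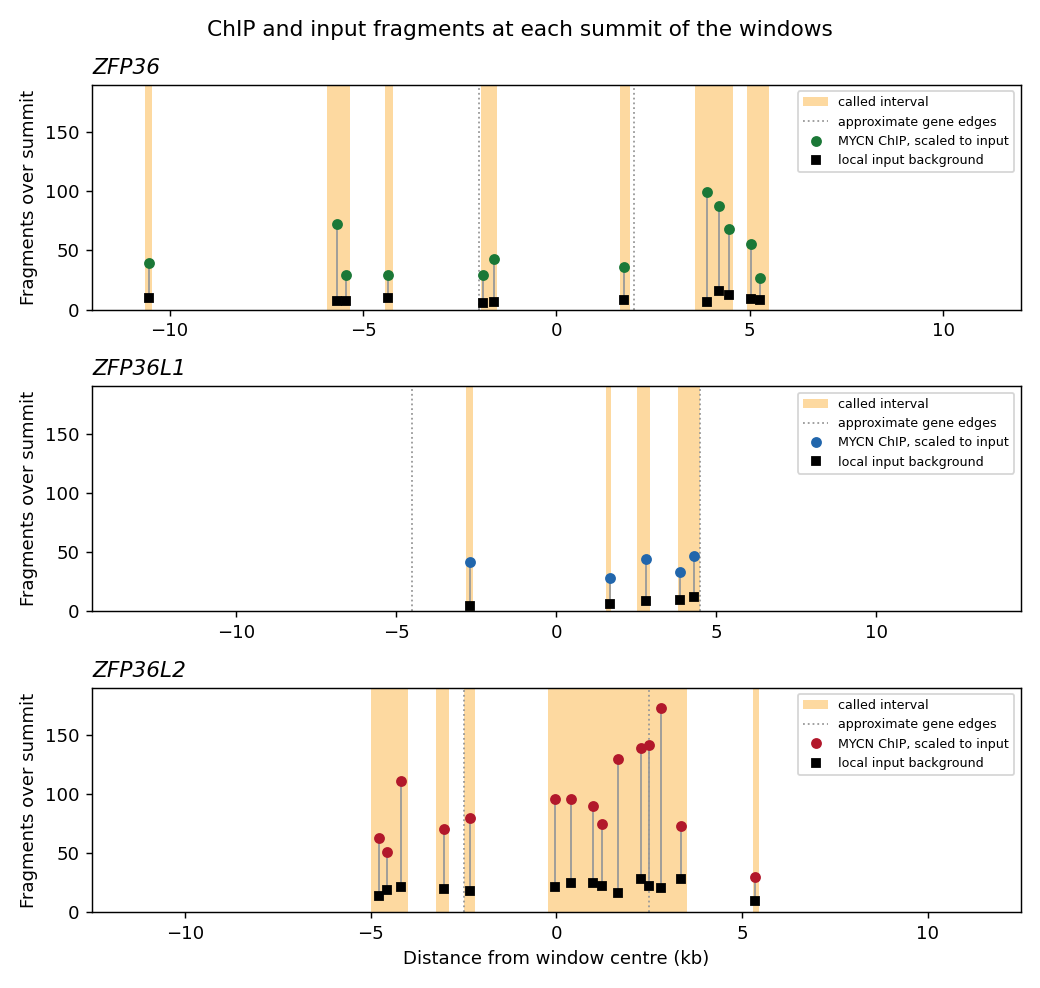
ChIP and input fragments over each summit against the distance from the window centre in kb, with 1 panel per gene. Coloured points are MYCN ChIP fragments scaled to input depth, squares the local input background, shaded bands the called intervals and dotted lines the approximate gene edges. The ZFP36L2 panel shows 9 summits in 1 band with backgrounds of 16.5 to 28, and the ZFP36L1 panel shows 5 summits, all between the gene edges.

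At ZFP36 the summits were spread over several narrower intervals and the strongest lay outside the gene. The 12 summits fell into 7 intervals of 180 to 982 bp that covered 13.5% of the window. At least 12 summits were found in 0.072% of all 24-kb stretches, and in 0.31% of those with at least 1 summit. The stretches include gene-free sequence and the gene was chosen with earlier results known, so nothing is read from these shares. By the window rule the gene covers about 39897 to 39901 kb. In that part 3 summits were called, and their fold enrichments were the moderate values of 4.43, 5.80 and 4.10.

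The first 2 of these summits, at 39897114 and 39897393, shared the interval from 39897042 to 39897477 at the start edge of the gene, where they had 45 and 67 ChIP fragments. The third, at 39900751, lay towards the other edge and had 56. Their backgrounds were 5.74, 6.58 and 8 input fragments. Of the whole list, 29.7%, 53.1% and 42.6% of the summits had fewer ChIP fragments than these, so the gene part itself held no summit that stood high in the list.

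The strongest summit of the ZFP36 window was at 39902907, 2156 bp beyond the last summit of the gene part. Its fold enrichment was 13.8, its −log10 q 76.9 and its fragment number 155 (95% CI 132 to 181), on a background of 6.3. It was the only one of the 32 family summits with a fold enrichment of at least 10, a level reached by 12% of the list. Its interval, from 39902598 to 39903579, held summits of 5.23 and 5.31 as well, and the interval from 39903918 to 39904501 held a further 2, of 5.72 and 3.14. In the order of genes on GRCh38.p14, ZFP36 is followed by the microRNA gene MIR4530, a transfer RNA gene and PLEKHG2. Which of these genes the summits beyond ZFP36 belong to was not determined, since no hg19 annotation was used.

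On the low-coordinate side, which MED29 precedes in the gene order, 4 summits were called. MED29 encodes a subunit of the Mediator complex. The summit at 39893318 stood out with a fold enrichment of 9.18 and 113 fragments (95% CI 93.1 to 136). Its partner in the same interval, at 39893569, had 3.81. The summits at 39888479 and 39894637 had 3.65 and 2.71, on backgrounds of 10 each, and 2.71 was the lowest value in this window.

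At ZFP36L1 fewer summits were called, all between the gene edges. The highest fragment number was 73, against 155 in the ZFP36 window and 269 in the ZFP36L2 window. By the window rule the gene covers about 69254 to 69263 kb, and 5 of 5 summits lay in that part, in 4 intervals of 146 to 674 bp. They covered 4.93% of the window. At least 5 summits were found in 2.85% of all 29-kb stretches, and 26.4% of these stretches held at least 1. Of those with at least 1 summit, 10.8% held at least 5, and nothing is read from these shares either.

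The summit of highest fold enrichment at ZFP36L1, 8.54, was at 69255792, towards the end of the gene. It had 65 ChIP fragments (95% CI 50.2 to 82.8) on a background of 4, the lowest background of the 32 family summits. The summits at 69260163 and 69261289 had fold enrichments of 4.08 and 5.03 with 43 and 69 fragments. The interval from 69262300 to 69262973, at the start edge of the gene, held 2 summits of 3.37 and 3.68. The second of these, at 69262798, had 73 fragments (95% CI 57.2 to 91.8), on the highest background of the window, 12. The fragment numbers of 73, 69 and 65 at the 3 highest summits differed by less than their counting error, so they single out no part of the gene.

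Beside ZFP36 and ZFP36L1, the ZFP36L2 locus stood apart more in fragments and background than in fold enrichment. The median fold enrichment was 4.83 at ZFP36, 4.08 at ZFP36L1 and 4.24 at ZFP36L2, against 5.35 in the whole list. The median number of ChIP fragments was 64 at ZFP36, 65 at ZFP36L1 and 140 at ZFP36L2, against 63. The median background was 7.85 at ZFP36, 8 at ZFP36L1 and 21 at ZFP36L2, against 7.56. By these medians all 3 loci were above the list in the last 2 measures, ZFP36 and ZFP36L1 slightly and ZFP36L2 by a wide margin. Over summits whose −log10 q reached 10, the median of fragments was 109.5 at ZFP36 (6 summits), 69 at ZFP36L1 and 149 at ZFP36L2. This filter favours summits with many fragments, and the list median was not recomputed under it.

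The 32 summits lay in 16 intervals, of which 9 held a single summit, against 76.4% of the intervals in the list. Over all 32 summits, 12 had a fold enrichment of at least 5, a level reached by 55.8% of the list, and 8 were above the list median in fold enrichment, as were 50% of the list. More ChIP fragments than the list median were found at 23 of 32, against 49.5% of the list. A background above the list median was found at 25 of 32, against 49.5% of the list. ZFP36L2 contributed 14 of these 23 and 15 of these 25, while ZFP36 contributed 6 and 7 and ZFP36L1 contributed 3 and 3. Since the members were chosen from this list, nothing is read from these shares. The smallest −log10 q of the 32 was 3.84, in the ZFP36 window, and the lowest of the list was 2.01.

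**Figure D2:**
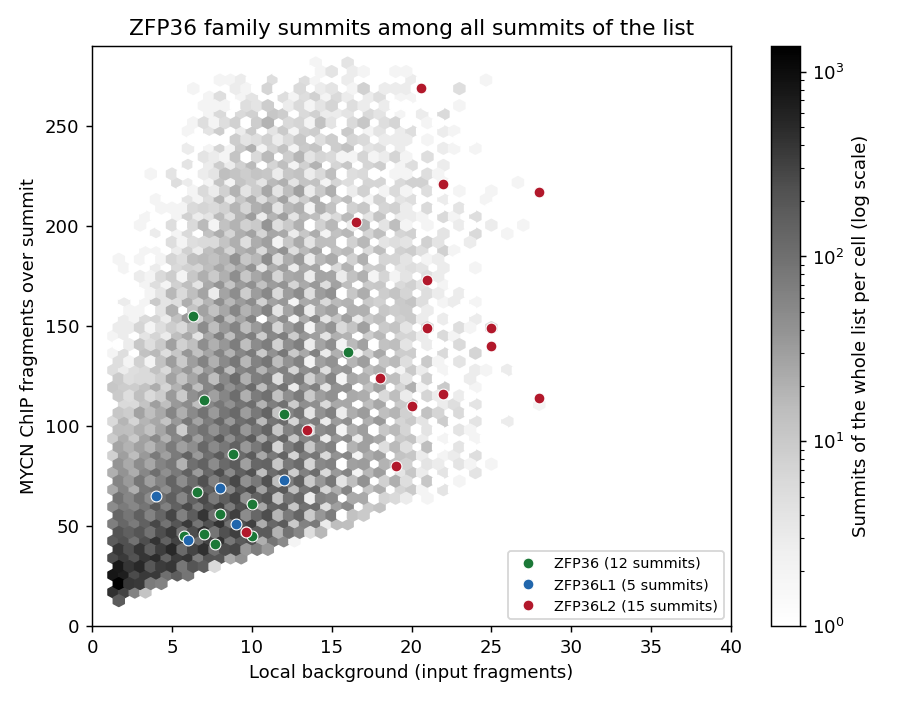
Number of MYCN ChIP fragments over a summit against the local background in input fragments, for the 32 summits of the family (coloured by gene) and for all summits of the list (grey cells, shaded on a log scale by the number of summits). The axis ends at 40 input fragments, beyond which 19 summits of the list and none of the family lie. Most ZFP36L2 summits sit to the right, with a median background of 21 and a lowest of 9.63. Backgrounds ran from 5.74 to 16 at ZFP36 and from 4 to 12 at ZFP36L1.

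The position of a summit within the list depended on the measure, and most at ZFP36L2. There, 15 of 15 summits stood lower by fold enrichment than by ChIP fragments. The same held for 8 of 12 summits at ZFP36 and for 3 of 5 at ZFP36L1, against 55.3% of the list. The summit at 43454864 of ZFP36L2 was an extreme case, since 79.3% of the list had fewer fragments and 2.85% had a lower fold enrichment. At 69255792 of ZFP36L1 the order was the opposite, with 51.4% of the list below it by fragments and 81.5% by fold enrichment. The background divides the fold, so these orders follow its level.

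**Figure D3:**
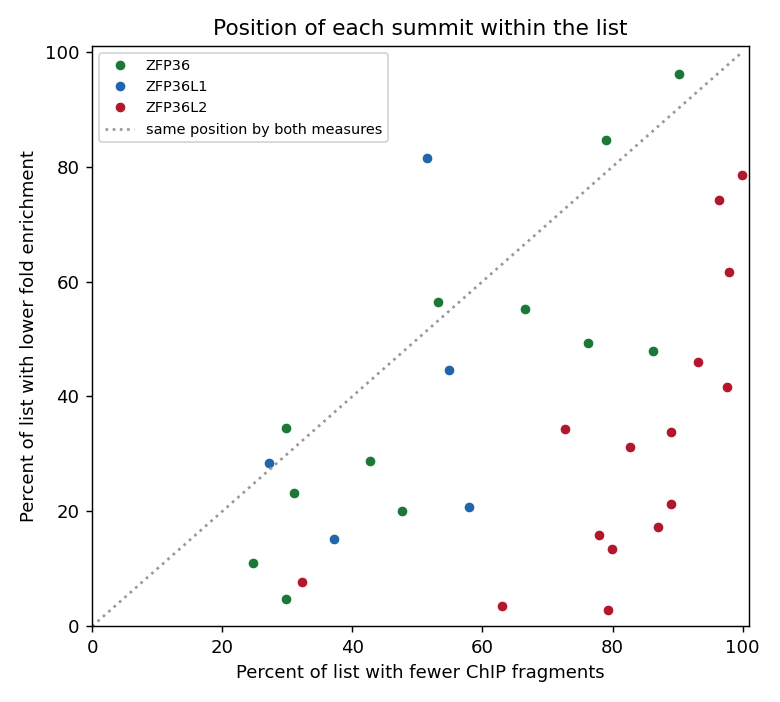
Share of all summits with a lower fold enrichment against the share with fewer ChIP fragments, both in percent, 1 point per summit of the 3 windows. Points below the dotted line rank lower by fold enrichment than by fragments, as 15 of 15 ZFP36L2 summits do.

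The ZFP36L2 block was also set beside the intervals most like it, the 21 intervals of the list with at least 8 summits, which are 0.044% of 47765. Its median background of 22 input fragments was higher than that of 20 of these 21, whose median was 8.34. Its highest fragment number of 269 was above that of 20 of these 21 as well, whose median was 145. By highest fold enrichment, in contrast, only 5 of the 21 were lower than its 8.04, and their median was 9.11, with a range of 4.17 to 19.0. The block thus had the most ChIP fragments and the highest median background among the intervals with at least 8 summits, itself included, while its highest fold enrichment was below their median.

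Around the genes the summits were sparser than within the windows. Summits per 10 kb numbered 5 in the ZFP36 window and 0.9 in its 100-kb flanks. They numbered 1.72 in the ZFP36L1 window and 0.35 in its flanks, and 6 in the ZFP36L2 window and 0.45 in its flanks. The ratios of window to flanks were 5.56, 4.93 and 13.3 in this order of genes. Over chromosomes 1 to 22 and X, up to the last peak, the density was 0.213 per 10 kb. Counting 1 summit per interval, the ratios were 5.83, 4.60 and 4.44, so ZFP36L2 no longer had the highest. With 50-kb flanks they were 10, 3.45 and 8.57, and ZFP36 had the highest. The order of the loci by this ratio therefore depended on how summits and flanks were counted.

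The ZFP36 flanks held 18 summits and were the richest of the 3. On the low-coordinate side there were 5, the nearest at 39882064 with a fold enrichment of 2.92, which is 4.94 kb outside the window, and the highest at 39811460 with 9.42. On the high-coordinate side there were 13, with a median fold enrichment of 7.77, and the strongest, at 39993619, reached 18.1 with 177 fragments. The first of them, at 39926584, reached 12.3 with 201 fragments and lay 15.6 kb outside the window. The first and last summits inside the window were those at 39888479 and 39904270, with fold enrichments of 3.65 and 3.14. The ZFP36 window thus lies in a stretch where stronger MYCN summits were called in the neighbourhood than between its gene edges.

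The ZFP36L1 flanks held 7 summits, 6 of them on the high-coordinate side, which is upstream of the gene and where ACTN1 is the next protein-coding gene in the gene order. ACTN1 encodes the actin cross-linking protein alpha-actinin. The strongest was at 69291703, in an interval that starts at 69291470 and ends at 69291876. It had a fold enrichment of 20.2, a −log10 q of 148 and 250 fragments (95% CI 220 to 283) on a background of 7. It lay 18.7 kb outside the window, and its fold enrichment was the highest in any of the windows and flanks described. Nearer to the gene, an interval from 69282889 to 69283661 held summits of 4.66 and 4.90 on backgrounds of 20 and 17. On the other side a single summit, at 69229890, had 2.86. No interval was called over 25.8 kb between it and the first interval of the gene, nor over 19.9 kb between the last interval of the gene and the interval starting at 69282889.

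The ZFP36L2 flanks held 9 summits, each alone in its interval. The 3 on the low-coordinate side had fold enrichments of 3.66, 6.15 and 3.56, and 44.0 kb without a call separated them from the window's first interval. The 6 on the high-coordinate side, where the non-coding RNA gene LINC01126 and then THADA follow in the gene order, had a median of 3.53. The strongest, at 43546624, reached 10.2 with 64 fragments on a background of 3.12. The nearest on this side, at 43478762, had 3.55 and lay 14.8 kb outside the window. Median backgrounds were 21 input fragments in the window and 9.52 in the flanks, so the input was higher at the summits of the window than at most summits around it.

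**Figure D4:**
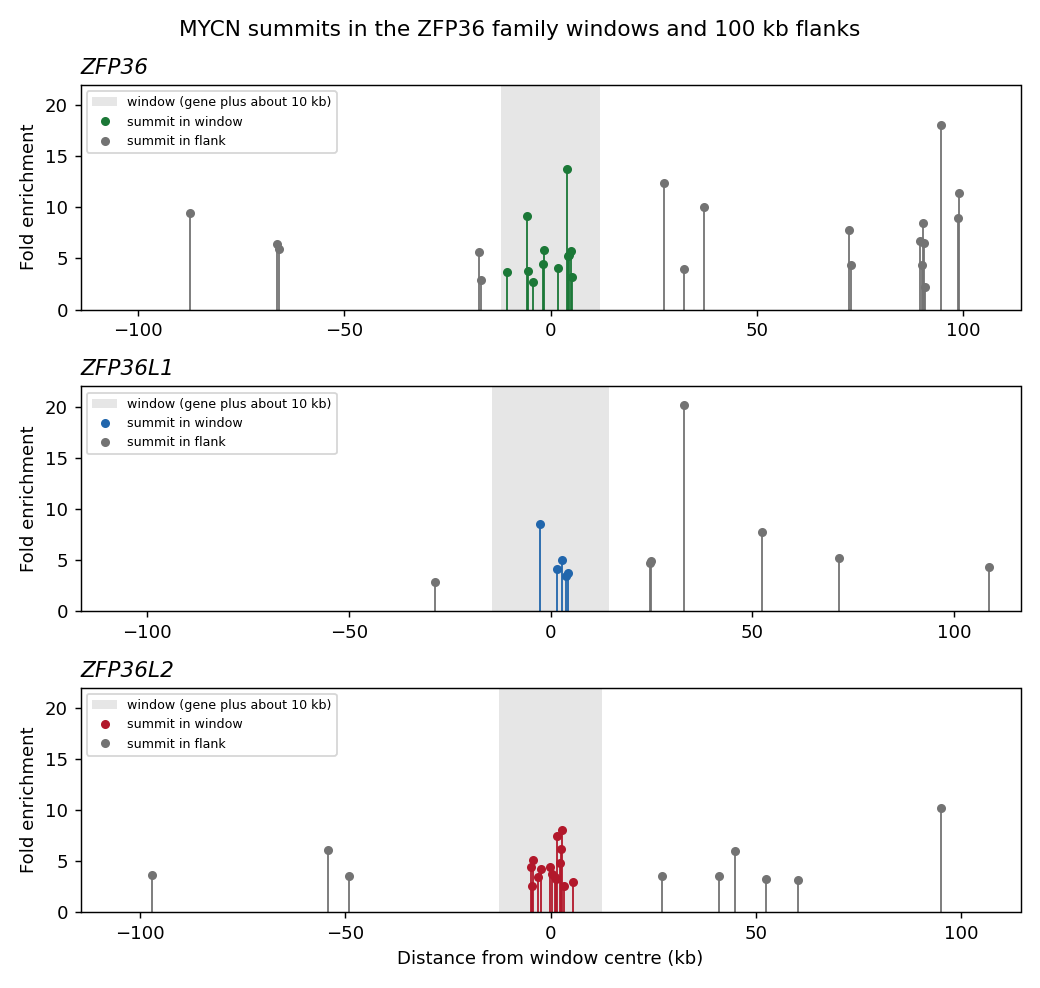
Fold enrichment of each MYCN summit against its distance from the window centre in kb, with 1 panel per gene, for the windows (shaded, coloured points) and 100 kb on each side (grey points). The tallest grey point of the ZFP36L1 panel is the upstream summit of 20.2, and the summits of the ZFP36L2 window stand close together with none above 8.04.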

How the data were processed

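Chromatin immunoprecipitation and sequencing of MYCN was used as peak lists of the authors, in narrowPeak layout. Per the submitters' processing notes, the tools included MACS2 2.1.1, a peak caller, together with the aligner STAR 2.5.1b, and also deepTools 2.2.4, Picard and SAMtools 1.3.1, on hg19. The way in which both ChIP samples of a state were joined is not stated there. Each deposited row is a summit with the authors' fold enrichment (ratio of ChIP to local background), −log10 p-value, −log10 q-value and an integer score. They served only to describe and rank peaks within the list. Positions are counted from 1.

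ChIP fragments and background were solved from the deposited fold and p-value by the relations of MACS2, with 1 ChIP scale of 0.641, which gave a whole number at 64657 of 64657 summits (−log10 p within 0.0005) and was tested on simulated data. For 24 summits 2 or more numbers met this and the closest was taken. Intervals on fragment numbers are exact Poisson intervals of 95% that cover counting error only. They assume no ceiling on the number, so near the highest of the list, 280, they may not hold. No p-value was computed.

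Windows were those of the member rule, and the printed summits were the highest and lowest of each window, all summits of the widest interval and the highest of each flank, with the others given for completeness. Gene edges are the window edges moved in by 10 kb. The genes, windows and descriptions were chosen with earlier results of these data known. Other mRNA decay genes were listed for a search but not analysed here, since no hg19 annotation was used. Gene order and promoters came from RefSeq GRCh38.p14. Thresholds, counting units, window and flank sizes were varied. The software was Python 3.11.15 with scipy 1.17.1, pandas 2.3.3, numpy 2.4.6 and matplotlib 3.10.9.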

Additional observations from a re-analysis of the deposited data

How the results depend on the processing

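No paired analysis was possible because the replicates of a state come as 1 joint list, so leaving out a replicate was not possible either. Of 81 values recomputed under an alternative, 19 moved. The other 62 stayed within 1.5 times for counts, or within the 95% interval of the value reported for ratios and medians. At 5 to 15 summits per locus these intervals are wide. For medians over the 5 ZFP36L1 summits the whole range was used, so no median over fewer of these summits could move. With a −log10 q of at least 10, 6 summits were left at ZFP36, 3 at ZFP36L1 and 5 in the ZFP36L2 flanks. With a fold enrichment of at least 5, the summits numbered 6 at ZFP36, 2 at ZFP36L1 and 4 at ZFP36L2, with 3 in the ZFP36L1 flanks and 3 in the ZFP36L2 flanks. The median fold enrichment at ZFP36L2 was then 6.83 and its median fragment number 211.5, since this threshold removes the lower values. Counted as intervals, ZFP36 had 7 and ZFP36L2 had 5, and the density ratio of window to flanks at ZFP36L2 was 4.44. The share of equally long stretches with at least as many intervals was 0.126% for ZFP36, 2.06% for ZFP36L1 and 0.685% for ZFP36L2. Among stretches with at least 1 summit, the share with as many summits was 0.31%, 10.8% and 0.128% in this order. The windows narrowed or widened by 5 kb held 11 and 13 summits at ZFP36, 5 at ZFP36L1 and 15 at ZFP36L2. The density ratios were 10, 3.45 and 8.57 with 50-kb flanks and 7.41, 3.14 and 14.1 with 200-kb flanks. Exact binomial 95% intervals for the ratios reported were 2.44 to 12.2, 1.23 to 18.0 and 5.47 to 34.6. These intervals count each summit as an independent trial, although 9 of the 15 ZFP36L2 summits share 1 interval. They therefore understate the uncertainty, and at 1 count per interval the ZFP36L2 ratio of 4.44 lay below its interval. With a −log10 q of at least 10 the density ratios were 3.33, 4.14 and 19.2. The median fold enrichment at ZFP36L1 was 6.78 under the fold threshold, over 2 summits. The median fragment number at ZFP36 was 109.5 under either the −log10 q of at least 10 or the fold threshold. Without read counts per sample, depth was known only through the recovered fragments, and no summit with fewer than 13 was listed.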
